A study of Homo sapiens with 16 samples.

Results

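The 54 genes described here act in mitosis: 12 kinesin motors, 9 centromere proteins, 6 subunits of the Ndc80 and Ska complexes, 4 spindle checkpoint genes, 8 mitotic kinases and passengers, 5 regulators of anaphase and mitotic entry, 5 spindle and cytokinesis proteins, 3 genes of condensin and topoisomerase and 2 transcription factors. They were chosen by symbol from a list of mitotic genes, with no measured value in the rule but with earlier results of these data known. All 54 were found among the 25369 genes of the deposited count table. Poly-A RNA was sequenced from TPC1 and K1 cells, 2 human papillary thyroid carcinoma lines with wild-type p53, K1 being labelled K1 (GLAG-66). Each line received vehicle (0.2% DMSO), 10 μM nutlin, 25 μM GSK2830371 or both drugs together (the combination) for 24 h, with 2 libraries in each of the 8 groups and 16 libraries in all. Nutlin keeps MDM2 from binding and degrading the p53 protein, and GSK2830371 inhibits PPM1D, a phosphatase that restrains p53. Each line is 1 established line, TPC1 was grown in RPMI and K1 in DMEM, so that line, medium and any batch cannot be told apart.

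During mitosis, kinetochores assemble on centromeres that carry the histone variant CENPA and attach to spindle microtubules through the Ndc80 complex. The spindle checkpoint holds back the anaphase promoting complex until attachment is complete, after which separase cuts cohesin, kinesins and the Aurora B passenger complex move to the midzone, and the cell divides. Transcription of most of these genes peaks in G2 and mitosis, is driven by FOXM1 and B-MYB, and is repressed in resting cells by the DREAM complex at promoter elements named CHR, which are often flanked by CCAAT boxes. Activated p53 induces CDKN1A, the gene of the CDK inhibitor p21, and fewer dividing cells and less RNA per dividing cell cannot be told apart in bulk RNA.

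Total counts ran from 30789887 to 76648552 per library in TPC1 and from 28888686 to 37161241 in K1, and the TMM scaling factors from 0.938 to 1.06 and from 0.992 to 1.04. Levels are given as CPM, a gene's count relative to its library's total after scaling by these factors. In TPC1, CDKN1A stood at 125 and 152 CPM with DMSO and at 157 and 179 with GSK2830371. It stood there at 6820 and 7000 CPM with nutlin and at 11500 and 13500 with the combination. In K1, CDKN1A stood at 109 and 116 CPM with DMSO and at 229 and 226 with GSK2830371. Its K1 levels were 967 and 1050 CPM with nutlin and 1510 and 1550 with the combination. The thyroid genes PAX8 (298 to 838 CPM) and FOXE1 (22.3 to 38.1) and the epithelial keratins KRT8 (310 to 839) and KRT18 (118 to 465) were present in every library, whereas TSHR was at 0 in all and 7 of 10 thyroid markers and 3 of 6 epithelial markers (KRT19, EPCAM and CDH1) stayed below 1 CPM. Of the markers of other cell types, the summed levels reached at most 4.58 CPM for 5 leukocyte, 0.79 for 3 endothelial and 19.1 for 4 fibroblast genes.

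The promoters of some of these genes are shown first, and their part in the changes was not tested. RefSeq promoter windows, 250 bases before to 50 bases after an annotated start on GRCh38.p14, were matched by symbol for 47 of the 54 genes, and CENPM, TTK, AURKA, BIRC5, UBE2C, TPX2 and FOXM1 had no entry in the table. The windows below belong to HJURP, with the deepest fall under nutlin in TPC1, KIF15, with the deepest in K1, KIF20A, which moved in opposite directions in the 2 lines when GSK2830371 was added to nutlin, PLK1, with the largest interaction of the drugs in K1, and PTTG1, with the smallest fall under nutlin in K1. They lie at chr2:233854486-233854785, minus strand (HJURP), chr3:44761544-44761843, plus strand (KIF15), chr5:138178862-138179161, plus strand (KIF20A), chr16:23678639-23678938, plus strand (PLK1) and chr5:160421660-160421959, plus strand (PTTG1, the second of 2 listed starts). Each is written 5′ to 3′ on the strand of its gene, and capitals mark the CHR letters TTTGAA or TTTAAA and the CCAAT letters on either strand.
HJURP: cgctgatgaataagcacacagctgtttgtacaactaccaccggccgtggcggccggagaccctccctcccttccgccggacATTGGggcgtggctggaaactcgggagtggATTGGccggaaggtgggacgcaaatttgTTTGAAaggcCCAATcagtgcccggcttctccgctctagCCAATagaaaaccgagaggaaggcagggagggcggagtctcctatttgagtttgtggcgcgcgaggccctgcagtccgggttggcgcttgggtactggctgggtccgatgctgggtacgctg
KIF15: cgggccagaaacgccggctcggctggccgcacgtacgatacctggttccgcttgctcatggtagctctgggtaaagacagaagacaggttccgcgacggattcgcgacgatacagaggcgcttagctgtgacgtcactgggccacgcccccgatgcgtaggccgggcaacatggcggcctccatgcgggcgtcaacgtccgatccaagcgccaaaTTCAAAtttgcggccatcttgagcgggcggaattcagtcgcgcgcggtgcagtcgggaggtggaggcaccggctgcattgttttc
KIF20A: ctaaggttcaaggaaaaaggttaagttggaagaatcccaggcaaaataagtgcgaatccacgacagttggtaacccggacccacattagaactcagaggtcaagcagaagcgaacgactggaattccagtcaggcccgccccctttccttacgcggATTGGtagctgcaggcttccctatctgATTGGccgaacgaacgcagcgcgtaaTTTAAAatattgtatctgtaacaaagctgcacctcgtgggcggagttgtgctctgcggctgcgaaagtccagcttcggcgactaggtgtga
PLK1: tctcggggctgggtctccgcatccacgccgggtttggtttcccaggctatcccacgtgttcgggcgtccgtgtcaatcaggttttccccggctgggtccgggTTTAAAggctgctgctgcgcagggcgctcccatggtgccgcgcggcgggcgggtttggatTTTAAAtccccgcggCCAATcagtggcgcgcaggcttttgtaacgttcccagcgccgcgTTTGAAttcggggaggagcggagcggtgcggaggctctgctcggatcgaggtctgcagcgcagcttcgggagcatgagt
PTTG1: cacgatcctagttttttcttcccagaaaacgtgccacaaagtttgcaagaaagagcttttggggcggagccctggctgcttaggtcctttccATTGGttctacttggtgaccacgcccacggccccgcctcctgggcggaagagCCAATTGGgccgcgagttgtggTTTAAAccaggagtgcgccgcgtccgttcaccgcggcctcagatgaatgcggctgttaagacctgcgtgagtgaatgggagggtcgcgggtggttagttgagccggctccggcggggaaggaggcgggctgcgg

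Counted by gene, with a match in any listed window, CHR letters on either strand were present in 39 of the 47 genes (83%). The share was 22.4% of 11625 tested genes with a window, counted the same way. It was 24% of 35116 RefSeq promoters, which were counted as single windows and not by gene. CCAAT letters on either strand were in 34 genes (72.3%), against 34.6% of all promoters and 42.7% of tested genes. Both elements were in the same window in 27 genes (57.4%), against 9.27% and 9.41%. The E2F letters TTTCCCGC, TTTGGCGC, TTTCGCGC and TTTGCCGC, searched on both strands, were in 2 genes (4.26%), against 3.31% and 6.17%. TTTAAA reads the same on both strands, and a pair of overlapping matches, as of the CCAAT letters in PTTG1, was marked as a whole. Split by the CHR letters, the median log2 fold change under nutlin was −4.31 for the 39 genes with CHR letters and −3.76 for the 8 without in TPC1, and −1.16 and −1.22 in K1. The CCAAT split went the other way in TPC1, at −4.11 for 34 genes with and −4.62 for 13 without, with −1.13 and −1.23 in K1. With both elements the medians were −3.96 for 27 genes and −4.46 for the other 20 in TPC1, and −1.13 and −1.21 in K1. Only TTTGAA and TTTAAA were searched as CHR letters, so a gene counted as without them may hold another form of the element. These matches describe short letters within a fixed window and were not tested as binding sites.

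Nutlin lowered all 54 genes in TPC1. At an adjusted p below 0.05 and a fold change above 1.5, the rule for a call throughout, 54 of 54 were lower, against 18% of 15273 genes tested called lower. The study describes its replicates in general as prepared separately, and the labels do not say so of these libraries. The p-values rest on the spread between libraries of the same group, pooled over all groups of a fit. The median log2 fold change was −4.20, so that 5.45% of the DMSO level was left, and the values ran from −6.55 for HJURP to −1.67 for ECT2. In K1 the same drug lowered 53 of 54, against 5.43% of 15900 genes tested, with a median of −1.14 and 45.4% of the DMSO level left. There the range was narrow, from −1.63 for KIF15 to −0.39 for PTTG1, the gene whose fold stayed under 1.5. The median over all genes tested was −0.0019 in TPC1 and −0.0017 in K1. Across the 54 genes, the TPC1 and K1 log2 fold changes under nutlin had a Pearson r of 0.414, a description over genes measured in the same libraries, which are not independent.

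**Figure D1:**
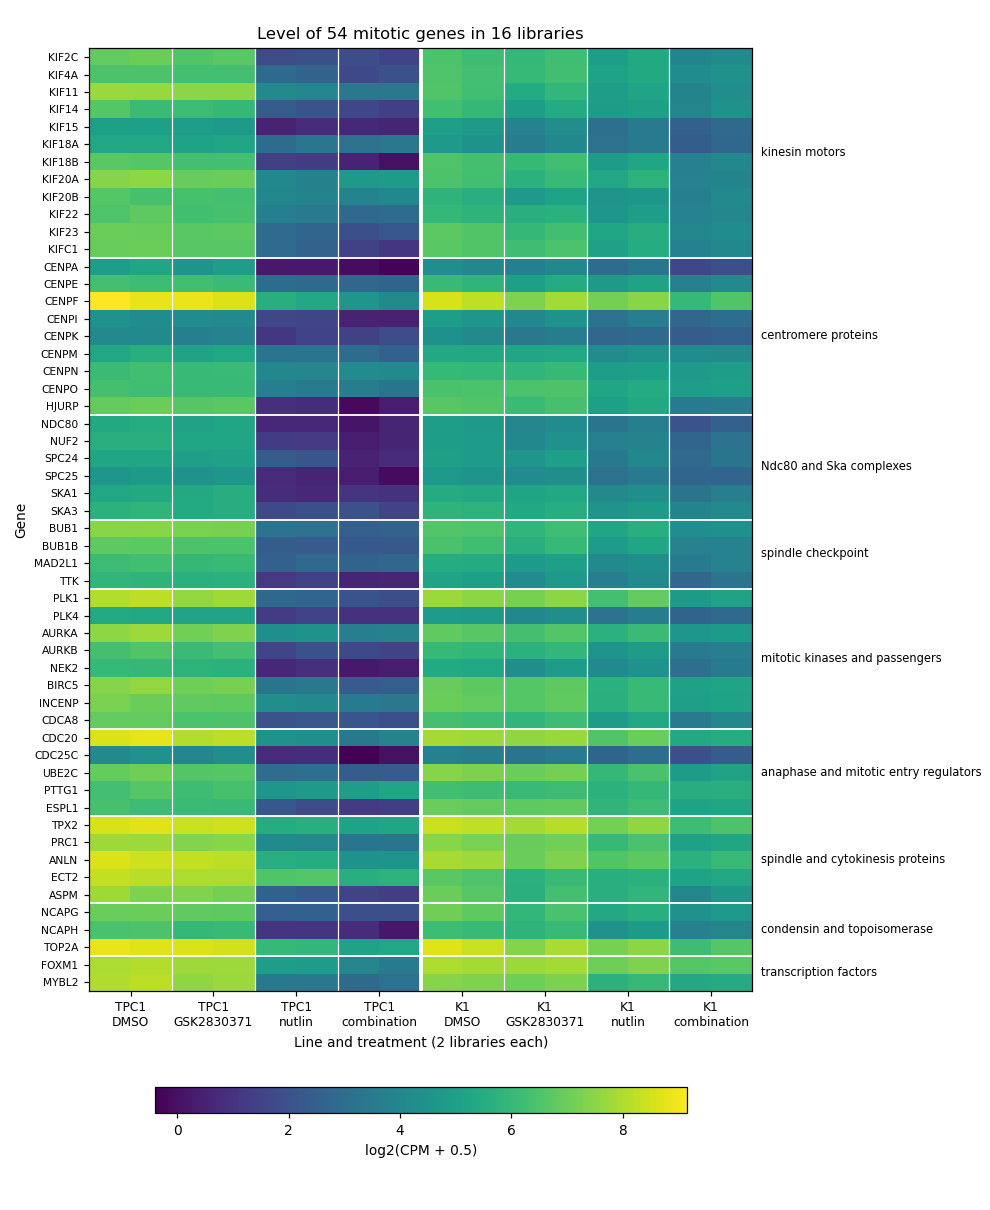
Level of the 54 genes (rows, grouped by class at the right) in the 16 libraries (columns, 2 for each line and treatment) as log2(CPM + 0.5), dark for low and yellow for high. Nutlin and the combination darken the TPC1 columns, to medians of 5.45% and 3.43% of the DMSO level, and the K1 columns less, nutlin to a median of 45.4% and the combination to a median of 24% of the DMSO level.

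The kinesin motors move chromosomes and spindle microtubules and comprise KIF2C, KIF4A, KIF11, KIF14, KIF15, KIF18A, KIF18B, KIF20A, KIF20B, KIF22, KIF23 and KIFC1. All 12 fell under nutlin in both lines, with medians of −4.10 in TPC1 and −1.24 in K1. KIF11, the bipolar motor that pushes spindle poles apart, stood in TPC1 at 212 and 203 CPM with DMSO, 182 and 181 with GSK2830371, 16.9 and 15.2 with nutlin and 10.2 and 10.2 with the combination. K1 cells had 93.3 and 76.4 CPM with DMSO, 44.3 and 60.4 with GSK2830371, 30.1 and 35.7 with nutlin and 14.4 and 18.7 with the combination. Both nutlin groups were below both DMSO groups, at log2 −3.73 (SE 0.09) and −1.36 (SE 0.14).

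KIF18B, which shortens microtubule ends, had the largest fall of the class in TPC1. Its TPC1 levels were 104 and 98.1 CPM with DMSO, 78 and 77.2 with GSK2830371, 2.16 and 1.91 with nutlin and 0.955 and 0.509 with the combination. In K1 they were 91.8 and 80.9 CPM with DMSO, 63.1 and 76.5 with GSK2830371, 28.6 and 37.3 with nutlin and 13.1 and 15.96 with the combination. Nutlin left 1.93% of the DMSO level in TPC1 and 38.3% in K1. KIF18A, its relative that dampens chromosome movement, had the smallest fall of the class in TPC1, with 39.3 and 39.6 CPM with DMSO, 34.8 and 37.03 with GSK2830371, 7.28 and 9.78 with nutlin and 8.65 and 9.95 with the combination. Its nutlin and combination libraries overlapped in TPC1. In K1 its levels were 25.8 and 22.3 CPM with DMSO, 11.97 and 16.1 with GSK2830371, 8.66 and 10.7 with nutlin and 4.84 and 6.58 with the combination, and the combination libraries were the lowest.

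KIF15, a motor that works beside KIF11 on the spindle, had the largest fall of any member under nutlin in K1, at log2 −1.63 (SE 0.15, adjusted p = 3.06e-06). The K1 libraries held 30.97 and 27.5 CPM with DMSO, 13.9 and 19.04 with GSK2830371, 7.91 and 10.9 with nutlin and 5.39 and 6.695 with the combination. In TPC1 it went from 32.1 and 30.9 CPM to 0.944 and 1.25 with nutlin and 1.09 and 1 with the combination, and these last 2 groups overlapped. KIF20A, the motor that carries the passenger complex to the midzone (GRCh37 chr5:137514408-137523412), had the smallest nutlin fall of the class in K1 and is described with the combination.

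The centromere proteins CENPA, CENPE, CENPF, CENPI, CENPK, CENPM, CENPN, CENPO and HJURP all fell under nutlin in both lines, with medians of −3.02 and −1.08. The class was split in TPC1: HJURP and CENPA, the chaperone and the histone that mark the centromere, fell by more than 5 log2 units, while the constitutive subunits CENPM, CENPN, CENPO, CENPK and CENPI lay between −3.02 and −2.27. HJURP, at GRCh37 chr2:234742062-234763212, stood in TPC1 at 117 and 128 CPM with DMSO, 98.2 and 103 with GSK2830371, 1.38 and 1.301 with nutlin and 0.393 and 0.746 with the combination. For HJURP, K1 gave 102 and 94.4 CPM with DMSO, 68.4 and 82.5 with GSK2830371, 31.9 and 41.6 with nutlin and 10.9 and 11.8 with the combination. The log2 fold change under nutlin was −6.55 (SE 0.16, adjusted p = 7.28e-09) in TPC1 and −1.41 (SE 0.11, adjusted p = 4.32e-07) in K1, by the quasi-likelihood test of edgeR, adjusted over all genes by the Benjamini-Hochberg method.

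CENPF, a large protein of the outer kinetochore, stood in TPC1 at 569.5 and 442 CPM with DMSO, 466 and 404 with GSK2830371, 47.4 and 38.7 with nutlin and 23.2 and 17.2 with the combination. In K1 it stood at 378 and 299 CPM with DMSO, 159 and 224 with GSK2830371, 143 and 173 with nutlin and 63.4 and 94.5 with the combination. The treated groups of K1 were each below DMSO, and its nutlin and GSK2830371 libraries overlapped. CENPM, another inner kinetochore subunit, stood in TPC1 at 38.6 and 48.04 CPM with DMSO, 33.8 and 38.2 with GSK2830371, 9.24 and 9.17 with nutlin and 7.36 and 5.42 with the combination. In K1 its levels were 40.2 and 40.5 CPM with DMSO, 37.9 and 38.3 with GSK2830371, 18.1 and 21.4 with nutlin and 18.4 and 17.4 with the combination, and nutlin and the combination overlapped.

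CENPK, a subunit of the inner kinetochore with the largest fall of the class in K1, had K1 levels of 20.4 and 17.4 CPM with DMSO, 10.2 and 11.9 with GSK2830371, 6.198 and 6.696 with nutlin and 4.75 and 5.44 with the combination. In TPC1 its levels were 16.4 and 16.9 CPM with DMSO, 12.8 and 13.7 with GSK2830371, 1.69 and 2.38 with nutlin and 2.27 and 2.95 with the combination. The combination was lower than nutlin in both K1 libraries, a difference that missed the threshold at −0.34 (SE 0.14, adjusted p = 0.128), and in TPC1 the groups overlapped. CENPE, a motor that brings chromosomes to the equator, had the smallest fall of the class in K1, with 65.5 and 56.6 CPM with DMSO, 31.3 and 44 with GSK2830371, 27.2 and 34.6 with nutlin and 12.9 and 17.1 with the combination. Its TPC1 levels were 77.7 and 72.5 CPM with DMSO, 76.4 and 68.3 with GSK2830371, 7.35 and 6.99 with nutlin and 6.23 and 5.88 with the combination.

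The Ndc80 complex, here NDC80, NUF2, SPC24 and SPC25, is the microtubule grip of the kinetochore, and SKA1 and SKA3 stabilise it. All 6 fell under nutlin, with medians of −4.71 in TPC1 and −1.21 in K1. NDC80 was the deepest of the class in both lines, with TPC1 levels of 41.6 and 44.99 CPM with DMSO, 33.9 and 36.4 with GSK2830371, 1.08 and 1.08 with nutlin and 0.5897 and 1 with the combination. Its K1 levels were 30.4 and 25.8 CPM with DMSO, 14.7 and 18.5 with GSK2830371, 9.07 and 12.4 with nutlin and 3.56 and 5.26 with the combination. Nutlin left 2.43% and 38.5% of the DMSO level.

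NUF2, the partner of NDC80 in the coiled coil, stood in TPC1 at 47.3 and 48.1 CPM with DMSO, 37.7 and 36.4 with GSK2830371, 1.85 and 1.78 with nutlin and 0.786 and 1 with the combination. It had the smallest fall of the class in K1, with 30.02 and 28.1 CPM with DMSO, 16 and 20.8 with GSK2830371, 12.9 and 14.2 with nutlin and 6.098 and 8.88 with the combination. Its 4 groups did not overlap in either line. SKA3, a subunit of the Ska complex that tracks microtubule ends, stood in TPC1 at 52.4 and 56.6 CPM with DMSO, 42.6 and 46.3 with GSK2830371, 2.73 and 3.34 with nutlin and 3.37 and 2.46 with the combination, with overlapping nutlin and combination libraries. K1 cells had 55.04 and 54.8 CPM with DMSO, 41.5 and 46.8 with GSK2830371, 22.8 and 27.6 with nutlin and 14.5 and 17.04 with the combination, each treatment below DMSO and the combination lowest. SPC24 had the smallest nutlin fall of the class in TPC1 and is described with the combination.

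The checkpoint genes BUB1, BUB1B, MAD2L1 and TTK keep anaphase waiting for attachment. The 4 fell with medians of −4.46 in TPC1 and −1.22 in K1. BUB1, a kinase at unattached kinetochores, stood in TPC1 at 173 and 177 CPM with DMSO, 149.6 and 147 with GSK2830371, 8.901 and 8.69 with nutlin and 5.08 and 5.75 with the combination. In K1 it stood at 97.4 and 90.2 CPM with DMSO, 58.02 and 74.01 with GSK2830371, 37.9 and 49.4 with nutlin and 18.9 and 20.5 with the combination, with the smallest nutlin fall of the class there. The groups fell in the order DMSO, GSK2830371, nutlin and combination in both lines, with no overlap.

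TTK, the kinase that starts checkpoint signalling, had the largest fall of the class in TPC1, with 59.2 and 56.2 CPM with DMSO, 50.5 and 51.2 with GSK2830371, 1.79 and 2.297 with nutlin and 1.01 and 1.03 with the combination. The K1 libraries held 36.1 and 31.5 CPM with DMSO, 17.9 and 25.4 with GSK2830371, 12.4 and 17.1 with nutlin and 6.22 and 8.97 with the combination. MAD2L1, which binds and holds CDC20, had the smallest in TPC1, with 70.5 and 76.9 CPM with DMSO, 61.6 and 66.6 with GSK2830371, 5.43 and 6.67 with nutlin and 5.95 and 6.17 with the combination, and its nutlin and combination libraries overlapped. For MAD2L1, K1 gave 45.3 and 44.4 CPM with DMSO, 26.8 and 31.3 with GSK2830371, 17.4 and 20.1 with nutlin and 11.4 and 13.9 with the combination. BUB1B, the checkpoint inhibitor BUBR1, had the largest fall of the class in K1, with 84.7 and 73.3 CPM with DMSO, 47.8 and 63.2 with GSK2830371, 29 and 36.95 with nutlin and 13.6 and 13.7 with the combination. In TPC1 its levels were 108 and 106 CPM with DMSO, 88.2 and 86.02 with GSK2830371, 4.75 and 4.59 with nutlin and 4.13 and 4.14 with the combination, and adding GSK2830371 to nutlin moved it by −0.17 (SE 0.10) in TPC1 and by −1.28 (SE 0.14) in K1.

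The mitotic kinases PLK1, PLK4, AURKA, AURKB and NEK2 and the passengers BIRC5, INCENP and CDCA8 fell with medians of −4.56 and −1.06. PLK1, which acts from mitotic entry to cytokinesis (GRCh37 chr16:23688977-23701688), had TPC1 levels of 265 and 295 CPM with DMSO, 196 and 224 with GSK2830371, 6.44 and 6.01 with nutlin and 3.68 and 3.17 with the combination. Its K1 levels were 212 and 179 CPM with DMSO, 144 and 178 with GSK2830371, 78.04 and 117 with nutlin and 27.4 and 33.6 with the combination. Nutlin left 2.16% of the DMSO level in TPC1 and 49.9% in K1, and the 2 K1 nutlin libraries lay further apart than those of any other K1 group.

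NEK2, a centrosome kinase, had the largest fall of the class in TPC1, with 64 and 62.4 CPM with DMSO, 54.9 and 53.5 with GSK2830371, 1.08 and 1.38 with nutlin and 0.674 and 0.763 with the combination. The K1 libraries held 43.1 and 38.2 CPM with DMSO, 19.4 and 29.1 with GSK2830371, 16.99 and 21.9 with nutlin and 7.94 and 10.7 with the combination. INCENP, the scaffold of the passenger complex, had the smallest in TPC1, with 151 and 128 CPM with DMSO, 113 and 111 with GSK2830371, 19.4 and 17.1 with nutlin and 11.5 and 10.1 with the combination. For INCENP, K1 gave 127 and 117 CPM with DMSO, 97.99 and 113 with GSK2830371, 50.7 and 66.4 with nutlin and 31.4 and 35.03 with the combination, the GSK2830371 libraries below DMSO, at log2 −0.21 (SE 0.10), which was not called.

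PLK4, which starts centriole duplication, had the largest fall of the class in K1, with 28.6 and 25.9 CPM with DMSO, 16 and 19.3 with GSK2830371, 8.903 and 12.1 with nutlin and 5.82 and 6.78 with the combination. Its TPC1 levels were 42.4 and 39.9 CPM with DMSO, 35.5 and 35.3 with GSK2830371, 1.96 and 2.33 with nutlin and 1.43 and 1.46 with the combination. AURKA, the spindle pole Aurora kinase, had the smallest in K1, with 111 and 102 CPM with DMSO, 81.1 and 97.3 with GSK2830371, 52.05 and 67.9 with nutlin and 24.2 and 27.4 with the combination. Its TPC1 levels were 183 and 217 CPM with DMSO, 138 and 157 with GSK2830371, 20.03 and 22.4 with nutlin and 12.5 and 14.2 with the combination, and the combination was lower than nutlin in both lines, at −0.66 (SE 0.11) and −1.22 (SE 0.12).

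CDC20, UBE2C, PTTG1, ESPL1 and CDC25C regulate anaphase and mitotic entry. All 5 were called lower in TPC1 and 4 of 5 in K1, with medians of −4.07 and −0.91. PTTG1 also fell in K1, but by a fold under 1.5. CDC20, the activator of the anaphase promoting complex, had TPC1 values of 387 and 440.5 CPM with DMSO, 263 and 294 with GSK2830371, 21.4 and 19.7 with nutlin and 10.5 and 13.9 with the combination. Its K1 values were 235 and 218 CPM with DMSO, 188 and 206 with GSK2830371, 94.3 and 124 with nutlin and 41.1 and 45.01 with the combination. UBE2C, the E2 enzyme that primes ubiquitin chains for that complex, had the largest fall of the class in K1, from 169 and 155 CPM to 61.8 and 84.5 with nutlin and 28.04 and 33.7 with the combination, against 118 and 135, 7.55 and 7.87 and 4.77 and 4.61 in TPC1.

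ESPL1, the protease separase, went in TPC1 from 82.8 and 70.6 CPM to 4.11 and 3.004 with nutlin and in K1 from 123 and 117 to 57.8 and 69.9. PTTG1, the securin that holds separase inactive, kept the most of the class, with TPC1 levels of 77.5 and 99.4 CPM with DMSO, 71.95 and 83.1 with GSK2830371, 24.6 and 27.2 with nutlin and 29.4 and 37.9 with the combination. Its K1 levels were 76.9 and 72.3 CPM with DMSO, 64.95 and 70.2 with GSK2830371, 51.5 and 62.5 with nutlin and 45.9 and 48.2 with the combination. Nutlin left 28.6% of PTTG1 and 4.4% of ESPL1 in TPC1, and 76.5% and 53.3% in K1. PTTG1 has near-identical copies elsewhere in the genome, and reads that place equally well in several copies were discarded before counting, so its absolute level is uncertain.

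TPX2, PRC1, ANLN, ECT2 and ASPM build the spindle and the cleavage furrow, and fell with medians of −3.16 and −1.13. TPX2, which targets AURKA to microtubules, stood at 382 and 421 CPM with DMSO, 322 and 351 with GSK2830371, 44.8 and 47.04 with nutlin and 34.5 and 37.98 with the combination in TPC1. In K1 its levels were 332 and 300.2 CPM with DMSO, 234 and 277 with GSK2830371, 142 and 189.8 with nutlin and 72.3 and 89.6 with the combination. ASPM, which focuses spindle poles, had the largest fall in TPC1, with 223 and 158 CPM with DMSO, 162 and 142 with GSK2830371, 5.43 and 4.47 with nutlin and 2.42 and 2.04 with the combination. The K1 libraries held 129.5 and 102 CPM with DMSO, 49.9 and 77.3 with GSK2830371, 47.3 and 58.4 with nutlin and 15.2 and 24.4 with the combination. The ratio between the libraries of a group was larger for ASPM than for TPX2 in every group but K1 with nutlin.

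ECT2, the exchange factor that switches on RhoA for the furrow, had the smallest TPC1 fall of all 54 genes, with 313 and 284 CPM with DMSO, 249.6 and 249.5 with GSK2830371, 93.2 and 99.7 with nutlin and 47.03 and 53.97 with the combination. For ECT2, K1 gave 104 and 90.9 CPM with DMSO, 51.7 and 66.04 with GSK2830371, 48.1 and 51.7 with nutlin and 35.2 and 39.1 with the combination. ANLN, the furrow scaffold anillin, had the largest fall of the class in K1, with 242 and 215 CPM with DMSO, 125 and 157 with GSK2830371, 94.4 and 107 with nutlin and 52.1 and 64.5 with the combination. Its TPC1 levels were 398 and 349 CPM with DMSO, 312 and 297 with GSK2830371, 47.3 and 45.3 with nutlin and 21.3 and 23.1 with the combination, each treated group lower than the one before it in the order DMSO, GSK2830371, nutlin and combination.

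NCAPG, NCAPH and TOP2A compact and untangle chromosomes and fell with medians of −4.62 and −1.45. TOP2A, the G2 and mitotic topoisomerase, stood at 471 and 413 CPM with DMSO, 391 and 360.2 with GSK2830371, 62.6 and 59.5 with nutlin and 34.1 and 38.2 with the combination in TPC1. K1 cells had 408 and 330.1 CPM with DMSO, 166 and 245 with GSK2830371, 145 and 179 with nutlin and 71.95 and 97.9 with the combination, and the GSK2830371 and nutlin libraries overlapped. NCAPH, a condensin subunit, kept 1.75% of its DMSO level with nutlin in TPC1 (83.5 and 87.8 CPM against 1.55 and 1.53) and 35.4% in K1 (72.8 and 66.8 against 21.9 and 27.4).

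The transcription factors FOXM1 and MYBL2 (B-MYB) fell as well. FOXM1 stood in TPC1 at 254 and 266 CPM with DMSO, 214 and 218 with GSK2830371, 29.6 and 29.1 with nutlin and 14.8 and 11.5 with the combination. In K1 it stood at 253 and 235 CPM with DMSO, 209 and 226 with GSK2830371, 132 and 158 with nutlin and 98.5 and 105 with the combination. Its 4 groups did not overlap in either line. MYBL2 stood in TPC1 at 260.1 and 294 CPM with DMSO, 190.1 and 212 with GSK2830371, 10.4 and 10.2 with nutlin and 6.99 and 8.44 with the combination. K1 cells had 169.8 and 158 CPM with DMSO, 131 and 152 with GSK2830371, 52.6 and 63.5 with nutlin and 40.9 and 43.8 with the combination. MYBL2 fell further than FOXM1 under nutlin in both lines, at −4.79 (SE 0.11) against −3.18 (SE 0.12) and −1.5 (SE 0.09) against −0.75 (SE 0.08), a difference between genes that was not tested.

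**Figure D2:**
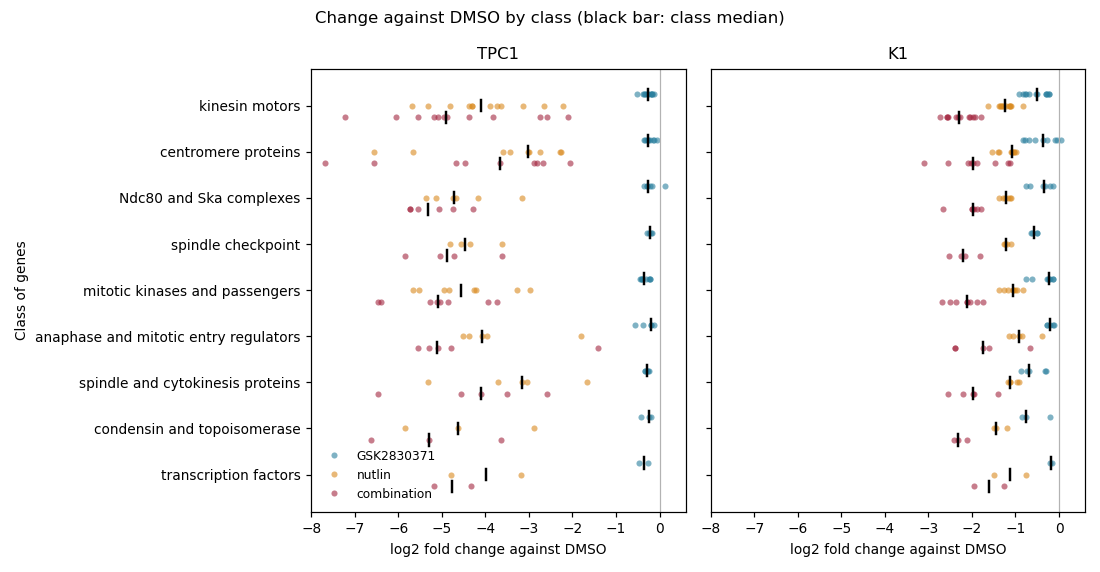
log2 fold change against DMSO (x axis) of each gene (points) by class (y axis) in TPC1 and K1, with GSK2830371, nutlin and the combination as separate rows and the class median as a black bar. The class medians of nutlin span −4.71 to −3.02 in TPC1 but −1.45 to −0.91 in K1, and those of GSK2830371 lie between −0.76 and −0.19 in both lines.

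Levels between genes can be compared only per length of transcript. Per kilobase of the annotated transcript, CDC20 (251 CPM) and UBE2C (163) were the highest of the 54 in TPC1 with DMSO, and UBE2C (209) and CDC20 (138) in K1. CENPI was the lowest in both, at 3.57 and 4.93 CPM per kilobase. The counts were over merged exons but the length was that of the canonical GENCODE transcript, so this order depends on that length. With DMSO, K1 was lower than TPC1 for 23 of the 54 genes, against 21.2% of 16738 genes tested, and higher for 1, ESPL1, against 25%. The median difference was −0.43 log2, ECT2 (−1.61, SE 0.11) and KIF11 (−1.29, SE 0.14) having the largest and ESPL1 standing 0.65 (SE 0.11) above TPC1. The ESPL1 call was lost without TPC1 DMSO replicate 3, and 2 genes were higher without K1 DMSO replicate 2.

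Genes outside the 54 show how far the fall extended. Over all genes tested, nutlin lowered 18% in TPC1 and 5.43% in K1, and 2671 of 15273 were called higher in TPC1. Of 61 other mitotic genes, nutlin lowered 56 in TPC1 (median −2.53) and 51 in K1 (median −1.05), and MAD1L1, a checkpoint partner of MAD2L1, rose in TPC1 (1.15, SE 0.08, adjusted p = 3.31e-06). Of 37 replication genes, 34 in TPC1 (median −2.50) and 33 in K1 (median −1.64) were lower. A list of other kinesin genes did not follow as a set. Of 23 tested in TPC1, KIF5C and KIF2A were lower and 5 higher (median 0.17). Of 24 in K1, KIF21B was lower (median 0.10). Of 14 genes of the anaphase promoting complex and its partners, the subunits ANAPC1 and CDC27 and the partners UBE2S and FZR1 were lower in TPC1 (median −0.25). In K1 only the partner UBE2S was lower (median −0.20). The genes named in this paragraph were singled out after their values were seen.

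GSK2830371 alone called no member in TPC1. At a fold minimum of 1.5, 0 of 54 were lower or higher in edgeR, against 0.681% of 15273 genes lower, and DESeq2 also called 0. By adjusted p alone, 9 were lower, against 1.64% of genes. At an unadjusted p below 0.05, 34 of the 54 were lower, against 10.5% of genes. The changes were small and mostly of the same sign, with a median of −0.27 (83.2% of the DMSO level) and a range from −0.57 for CDC20 to 0.13 for SKA1, the only positive value. Both GSK2830371 libraries were below both DMSO libraries for 45 of 54 genes, against 24% of genes tested.

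In K1, GSK2830371 alone lowered 19 of 54, against 1.5% of 15900 genes, with a median of −0.31 (80.5% of the DMSO level). The largest falls were those of KIF14 (−0.91, SE 0.16), ASPM (−0.86, SE 0.19), TOP2A (−0.85, SE 0.17), KIF15 (−0.83, SE 0.14) and CENPF (−0.82, SE 0.17). The called genes came from every class except the regulators of anaphase and mitotic entry and the transcription factors, whose medians were −0.20 and −0.19, against −0.76 for condensin and topoisomerase and −0.69 for spindle and cytokinesis proteins. Both GSK2830371 libraries were below both DMSO libraries for 46 of 54 genes, against 26.9% of genes tested.

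This K1 change ran with the GC content of the transcript. Over the 54 genes the log2 fold change had a Pearson r of 0.791 with GC, and over 11528 genes of at least 1 CPM on average over the 16 libraries an r of 0.492. In TPC1 the same correlations were −0.417 and −0.0436. The 27 genes with GC below the median of 44% had a K1 median of −0.70 and the other 27 one of −0.23. After correction for GC and length, these medians were −0.43 and −0.34, the range was −0.69 to −0.01, all 54 were below 0 and 6 were called. Without K1 GSK2830371 replicate 1, also 6 were called in place of 19. These correlations are over genes within the same libraries, and the part of GC in the result was not tested.

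**Figure D3:**
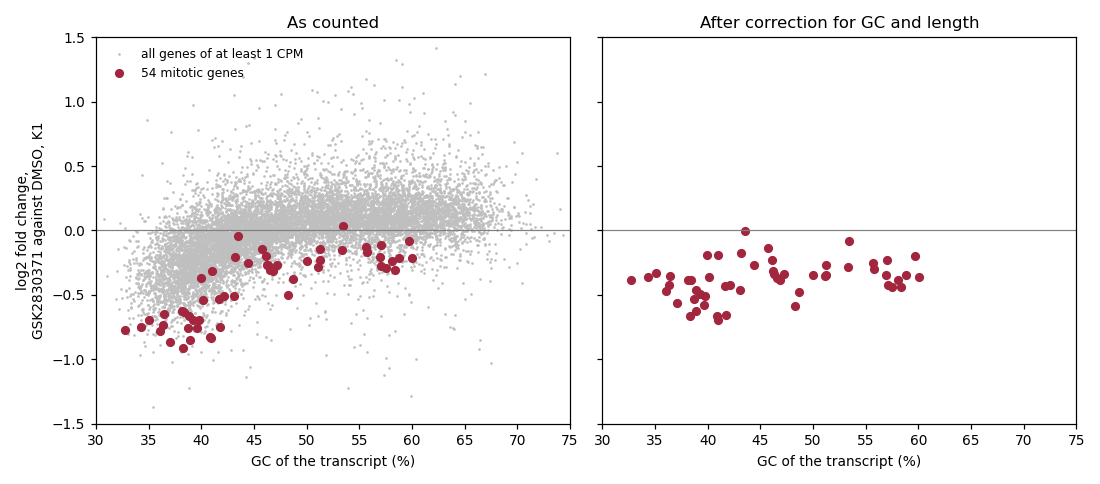
log2 fold change of GSK2830371 against DMSO in K1 (y axis) against the GC content of the transcript in percent (x axis), as counted (left, with all genes of at least 1 CPM over the 16 libraries in grey, 19 of 11528 lying outside the axes) and after correction for GC and length (right). The 54 genes (red) slope upward with GC on the left, with an r of 0.791, and lie between −0.69 and −0.01 on the right.

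The K1 libraries of a group also differed from each other across the whole set. Replicate 2 was above replicate 1 for 54 of 54 genes with nutlin, 54 with GSK2830371 and 53 with the combination, by median ratios of 1.26, 1.21 and 1.2, and for 2 of 54 with DMSO, by a median ratio of 0.886. In TPC1 the second library was above the first for 20 to 33 of 54 genes, with median ratios from 0.972 to 1.04. The 54 genes therefore moved with each other between K1 libraries as well as between treatments, and a count of calls over them is not a count of independent observations.

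The combination lowered all 54 genes in both lines against DMSO, against 21.7% of genes tested in TPC1 and 8.09% in K1. The median was −4.86 in TPC1, with 3.43% of the DMSO level left, and −2.06 in K1, with 24% left. HJURP was the lowest in both, at −7.68 (SE 0.17) and −3.11 (SE 0.12). PTTG1 changed least, at −1.42 (SE 0.14) and −0.66 (SE 0.08). Against GSK2830371 alone, the combination lowered 54 in TPC1 (median −4.64, against 19% of genes) and 53 in K1 (median −1.65, against 6.75%), PTTG1 being the exception at −0.52 (SE 0.08). These comparisons share the combination libraries, and those against DMSO also share the DMSO libraries with the nutlin comparison.

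Against nutlin alone, adding GSK2830371 lowered 44 of 54 genes in K1, against 1.52% of genes tested, and 31 of 54 in TPC1, against 5.66%. All 54 values were below 0 in K1, and 1 gene rose in TPC1, KIF20A, against 6.46% of TPC1 genes called higher. The medians were −0.89 in K1 and −0.72 in TPC1. Both combination libraries were below both nutlin libraries for 52 of 54 genes in K1, against 27.3% of genes tested, and for 40 in TPC1, against 31.7%, and above them for 4 in TPC1, against 32.5%. Without K1 nutlin replicate 2, 29 were lower in K1. Over the 54 genes, the TPC1 and K1 values had a Pearson r of 0.174.

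In K1, all 12 kinesins, all 6 Ndc80 and Ska genes and all 8 kinases and passengers were lower with the combination than with nutlin, with medians of −0.95, −0.74 and −1.08. KIF20A (−1.72, SE 0.15), HJURP (−1.70, SE 0.13) and PLK1 (−1.68, SE 0.17) were lowered most. Of the 9 centromere proteins 4 were called, CENPN (−0.10, SE 0.07), CENPM (−0.14, SE 0.08) and CENPK among those that were not. The transcription factors FOXM1 (−0.51, SE 0.08) and MYBL2 (−0.46, SE 0.09) had adjusted p-values of 0.00121 and 0.00608 by the quasi-likelihood test of edgeR, adjusted by the Benjamini-Hochberg method, but folds under 1.5.

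In TPC1 the same step lowered 6 of 12 kinesins, 3 of 6 Ndc80 and Ska genes, 5 of 8 kinases and passengers and all 3 genes of condensin and topoisomerase, and SPC24 and KIFC1 most. SPC24, the Ndc80 subunit that faces the inner kinetochore (GRCh37 chr19:11242196-11266483), stood at 37.8 and 36.9 CPM with DMSO, 31.3 and 32.7 with GSK2830371, 4.75 and 3.94 with nutlin and 0.955 and 1.25 with the combination. The combination libraries were below the nutlin libraries by log2 −1.91 (SE 0.16, adjusted p = 8.62e-05). KIFC1, the minus-end kinesin that draws spindle poles together, stood at 120.3 and 128 CPM with DMSO, 102 and 102 with GSK2830371, 7.18 and 5.74 with nutlin and 2.27 and 1.65 with the combination, a step of −1.73 (SE 0.17, adjusted p = 0.00018) from nutlin to the combination. In K1, SPC24 stood at 32.5 and 27.97 CPM with DMSO, 23.7 and 30.9 with GSK2830371, 10.6 and 15.9 with nutlin and 6.92 and 9.41 with the combination. KIFC1 stood there at 104 and 93.3 CPM with DMSO, 74.1 and 86.7 with GSK2830371, 32.8 and 45.5 with nutlin and 13.4 and 16.1 with the combination, and its groups followed the order DMSO, GSK2830371, nutlin and combination with no overlap.

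Among the other lists, adding GSK2830371 to nutlin lowered 17 of 61 other mitotic genes in TPC1 (median −0.28) and 27 in K1 (median −0.49), and FAM83D rose in TPC1. Over all genes tested, this step lowered 5.66% in TPC1 and 1.52% in K1, and 6.46% were called higher in TPC1. Of 37 replication genes, 5 were lower in TPC1 (GINS1, ORC1, RRM2, FEN1 and MCM3, median −0.11) and 2 in K1 (CDT1 and RRM2, median −0.16). UBE2S of the anaphase promoting complex list rose in TPC1, as did KIF27, KIF26B and KIF21B of the other kinesin genes. GSK2830371 alone lowered 0.681% of all genes tested in TPC1 and 1.5% in K1. It lowered 21 of the 61 other mitotic genes in K1 (median −0.32) and 0 in TPC1 (median −0.22). Of the 37 replication genes it lowered 0 in TPC1 (median −0.29) and 0 in K1 (median −0.13). Each of these list counts under GSK2830371 alone was the same in edgeR and DESeq2. At an unadjusted p below 0.05 in edgeR, 30 of the other mitotic genes and 25 of the replication genes were lower in TPC1, against 10.5% of genes tested, and 16 of the replication genes in K1, against 15.9%. The median over all genes tested was 0.013 in TPC1 and 0.0044 in K1 for the step from nutlin to the combination.

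KIF20A went the other way in TPC1. Its TPC1 levels were 172 and 186 CPM with DMSO, 120.4 and 129.5 with GSK2830371, 16.1 and 13.5 with nutlin and 25.7 and 28.8 with the combination. Its K1 levels were 89.1 and 75.8 CPM with DMSO, 51.2 and 65.8 with GSK2830371, 39.1 and 54.2 with nutlin and 13.8 and 14.5 with the combination. The nutlin libraries were the lowest in TPC1 and the combination libraries the lowest in K1, with no overlap between these 2 groups in either line. The step from nutlin to the combination was 0.89 (SE 0.10, adjusted p = 0.000522) in TPC1 and −1.72 (SE 0.15, adjusted p = 2.97e-05) in K1, and their difference, K1 minus TPC1, was −2.61 (SE 0.21, adjusted p = 2.73e-06). KIF20A kept its call as higher in TPC1 under every alternative run. KIF18A, KIF20B, CENPK, CENPN, PTTG1 and SKA1 had positive TPC1 values too, up to 0.39 (SE 0.15) for SKA1, none of them called, with adjusted p from 0.0795 for CENPN to 0.731 for KIF20B by the quasi-likelihood test of edgeR, adjusted by the Benjamini-Hochberg method.

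**Figure D4:**
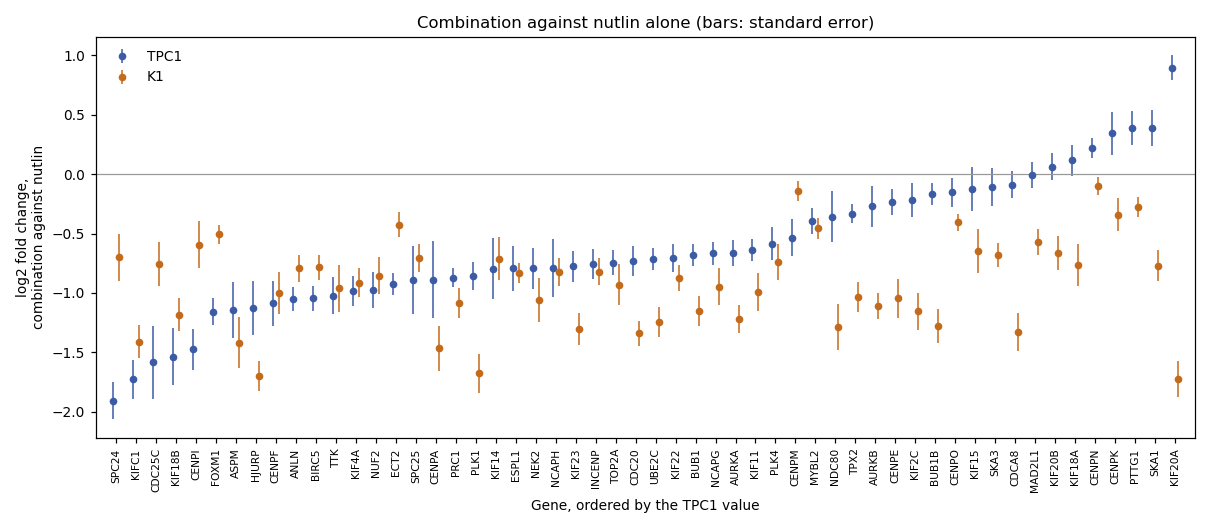
log2 fold change of the combination against nutlin alone (y axis) for each of the 54 genes (x axis, ordered by the TPC1 value), TPC1 in blue and K1 in orange, with standard errors from the fit. KIF20A lies at the far right with the highest TPC1 value, 0.89, and the lowest K1 value, −1.72.

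Whether the combination differed from the sum of the single drugs was tested as an interaction, the step from nutlin to the combination minus the step from DMSO to GSK2830371 on the log2 scale, so that a negative value means a lower level than the sum. In TPC1, 11 of 54 genes were called lower, against 3.5% of genes tested, and 1, KIF20A, higher, against 2.82%. The largest were SPC24 (−1.69, SE 0.19), KIFC1 (−1.45, SE 0.21), CDC25C (−1.45, SE 0.35), KIF20A (1.41, SE 0.14) and CENPI (−1.32, SE 0.20), and the median was −0.44. CDC25C, the phosphatase that activates CDK1, stood in TPC1 at 16.6 and 20.8 CPM with DMSO, 15.1 and 18.8 with GSK2830371, 1.15 and 1.28 with nutlin and 0.253 and 0.509 with the combination. CENPI, an inner kinetochore subunit, stood in TPC1 at 21.4 and 18.5 CPM with DMSO, 18.6 and 17.3 with GSK2830371, 2.56 and 2.54 with nutlin and 0.927 and 0.899 with the combination. In K1 they stood at 5.89 and 7.71 (CDC25C) and 8.63 and 12.3 CPM (CENPI) with nutlin and at 3.34 and 4.72 and 6.22 and 7.74 with the combination. The lowest count of any member in any library was 9, that of CDC25C in a TPC1 combination library. Without GSK2830371 replicate 1 or either nutlin replicate the TPC1 count of lower calls was 4, and without GSK2830371 replicate 3 it was 5, and without combination replicate 1 there were 2 higher calls.

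In K1, 23 of 54 genes were called lower by the interaction, against 0.654% of genes tested, with a median of −0.51. PLK1 (−1.40, SE 0.22, adjusted p = 0.00722), HJURP (−1.32, SE 0.17, adjusted p = 0.00216), KIF20A (−1.23, SE 0.20, adjusted p = 0.0077), CENPA (−1.20, SE 0.24, adjusted p = 0.0129) and CDC20 (−1.14, SE 0.14, adjusted p = 0.00216) had the largest values by the quasi-likelihood test of edgeR, adjusted by the Benjamini-Hochberg method. CENPA, the centromeric histone, stood in K1 at 18.9 and 15.6 CPM with DMSO, 12.6 and 16.1 with GSK2830371, 7.05 and 9.28 with nutlin and 2.67 and 3.26 with the combination. In TPC1 it stood at 30.7 and 36.6 CPM with DMSO, 22.6 and 29.6 with GSK2830371, 0.674 and 0.675 with nutlin and 0.449 and 0.305 with the combination. The combination was below nutlin with no overlap in both lines. Over the 54 genes this interaction also ran with GC, at a Pearson r of −0.589, and after correction for GC and length 9 were called, with a range from −1.22 to 0.10. HJURP, PLK1, KIF20A and CDC20 kept their calls after that correction and CENPA did not (−1.10, adjusted p = 0.0618). The median was −0.279 without K1 nutlin replicate 2, −0.31 without K1 combination replicate 1 and −0.332 without K1 GSK2830371 replicate 2. Leaving out K1 nutlin replicate 2 left 2 calls, DMSO replicate 2 left 12, combination replicate 1 left 11 and combination replicate 2 left 10.

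**Figure D5:**
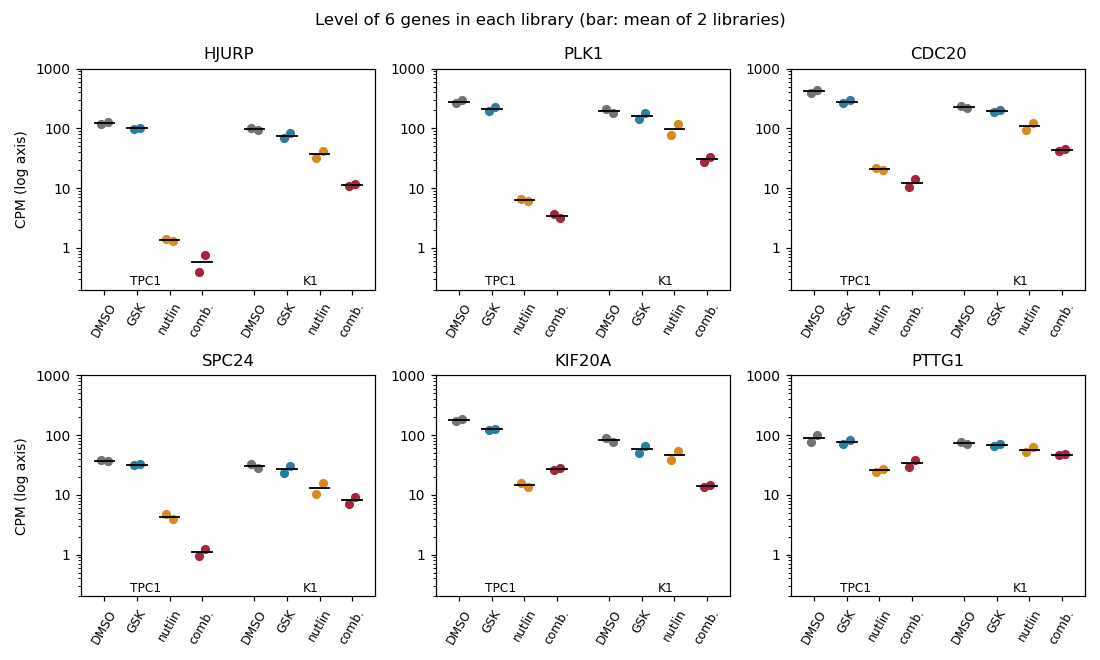
CPM on a log axis of HJURP, PLK1, CDC20, SPC24, KIF20A and PTTG1 in every library (points, 2 for each treatment, TPC1 at the left and K1 at the right of each panel), with the mean of each group as a bar. KIF20A is higher with the combination than with nutlin in TPC1 (means of 27.2 and 14.8) and lower in K1 (14.1 and 46.6).

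The response to nutlin differed between the lines for every member. The fall in TPC1 exceeded that in K1 for 54 of 54 genes in the test of the difference itself over all 16 libraries, against 8.73% of 16738 genes with a difference in that direction. The median difference, K1 minus TPC1, was 2.98 log2, from 5.11 for HJURP, 4.57 for NEK2 and 4.56 for CENPA down to 0.66 (SE 0.15) for ECT2. With the combination the difference was called for 52 of 54 genes, against 11.9%, with a median of 2.66, and KIF18A (0.01, SE 0.24) and KIF20A (0.17, SE 0.20) were the exceptions. The step from nutlin to the combination differed for 13: K1 fell further for 11, against 2.56% of genes, among them KIF20A, CDCA8 (−1.22, SE 0.25) and SKA1 (−1.15, SE 0.26), and TPC1 fell further for 2, SPC24 (1.21, SE 0.32) and FOXM1 (0.66, SE 0.15), against 2.56%. The 11 calls became 4 without TPC1 nutlin replicate 1, K1 nutlin replicate 2 or K1 combination replicate 1, 5 without TPC1 nutlin replicate 3 and 6 without TPC1 combination replicate 3. The 2 became 1 without TPC1 nutlin replicate 1 or TPC1 combination replicate 3 and 0 without K1 nutlin replicate 1 or K1 combination replicate 2.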

How the data were processed

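RNA was sequenced from 16 libraries, 2 for each of the 4 treatments of TPC1 and K1. The authors aligned reads to GRCh37 (hg19) with TopHat2 (version 2.0.13), removed reads of low mapping quality, and deposited HTSeq counts of reads on the strand of each gene's merged exons, 1 whole number per gene and library, with the UCSC annotation. In TPC1 the columns of a group are numbered 1 and 3 and the labels 1 and 2, so that columns numbered 3 were assigned to their group only. No columns of the authors' comparisons were used.

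Counts were fitted per line with edgeR (4.0.16, R 4.3.3), with TMM scaling, genes above 0.1 CPM in at least 2 libraries and 1 coefficient for each treatment, by the quasi-likelihood test with Benjamini-Hochberg adjustment over all genes (15273 in TPC1, 15900 in K1). Line differences came from a fit of all 16 libraries (16738 genes). A gene was called at an adjusted p below 0.05 and a fold change above 1.5. The members, the lists and the tests were chosen with earlier results of these data known. Levels by library are given, in each class, for the member with the highest mean CPM and those with the largest and smallest nutlin falls in each line, and for the 5 largest interactions per line. For ESPL1, NCAPH, UBE2C, KIF15, CDC25C and CENPI only some of the groups are given. The other lists are other mitotic genes, other kinesin genes, genes of the anaphase promoting complex and its partners, and replication genes. Same-numbered TPC1 libraries deviated together (r of 0.494 to 0.698 between groups, 12318 genes), whereas K1 libraries did not all do so (r of −0.359 to 0.379, 12531 genes). Transcript GC and length came from GENCODE on GRCh37 and covered all 54 members, and promoters came from RefSeq on GRCh38.p14. The fits within a line were also run on simulated counts of independent libraries with no interaction of the drugs. Falls as deep as those in TPC1, libraries that deviate together and line differences were not simulated. Alternatives were DESeq2 (1.42.0) size factors and Wald test, library size scaling, other filters, no fold minimum, a replicate block, GC and length correction, fits of the compared groups only and each library left out.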

Additional observations from a re-analysis of the deposited data

Results flagged for a closer look

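The response of the mitotic genes differed between TPC1 and K1 by the test of the difference itself, K1 minus TPC1 on the log2 scale in the fit of all 16 libraries, where a positive value means a smaller fall in K1. Under nutlin the difference was called for 54 genes, the largest being those of HJURP (5.11), NEK2 (4.57) and CENPA (4.56). With the combination against DMSO it was called for 52 genes, the largest being those of KIF18B (4.63), HJURP (4.54) and NEK2 (4.31). For the step from nutlin to the combination it was called positive for 2 genes, SPC24 (1.21) and FOXM1 (0.66), and negative for 11 genes, the largest being those of KIF20A (−2.61), CDCA8 (−1.22) and SKA1 (−1.15). Groups of 2 libraries were too small to look for single libraries that stand apart.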

How the results depend on the processing

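The counts called lower under nutlin (54 in TPC1, 53 in K1) and with the combination against DMSO (54 in each) were 53 or 54 under every alternative run. When 1 library was left out, the step from nutlin to the combination gave 26 to 33 lower calls in TPC1 and 29 to 46 in K1, with 1 higher call in TPC1 each time. GSK2830371 alone lowered 9 genes in TPC1 without a fold minimum and 6 in K1, in place of 19, after correction for GC and length, and from 6 to 24 in K1 with 1 library left out. The K1 interaction gave 9 lower calls in place of 23 after that correction and from 2 to 24 with 1 library left out, and the TPC1 interaction gave from 4 to 12 lower and from 1 to 2 higher calls. The count of higher calls in the TPC1 interaction was 2 without a filter and 2 in the DESeq2 Wald test. Between the lines, library size scaling gave 7 in place of 11 calls of a larger step in K1 (4 to 15 with 1 library left out, and 0 to 3 in the other direction), and DMSO levels were higher in K1 for 3 genes without a fold minimum (0 to 2 with 1 library left out). Of these changes, the cause was not tested.

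With the replicate number as a block, the TPC1 interaction had 2 higher calls and DMSO levels were higher in K1 for 2 genes. No other count moved by over 1.5 times under the block, and TPC1 lower calls in the interaction were 15.

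Of the 54 genes, 17 in the K1 interaction, 9 in the TPC1 interaction, 8 in the TPC1 step from nutlin to the combination and 17 in its K1 minus TPC1 difference changed sign under at least 1 alternative, as did 7 between the lines in DMSO, 3 under GSK2830371 in each line and 1 in the combination difference, and 0 of them were called. In the K1 interaction, GC and length correction took KIF14 from 0.20 to −0.103, KIF18A from 0.0144 to −0.3445, KIF20B from 0.0864 to −0.3734, MAD2L1 from 0.0563 to −0.2311, ECT2 from 0.30 to −0.0501 and CENPM from −0.0585 to 0.1025. With 1 library left out, KIF14 ran from −0.08571 to 0.4997, KIF18A from −0.2245 to 0.2418, KIF20B from −0.1678 to 0.2982, MAD2L1 from −0.09053 to 0.1858 and CENPM from −0.1719 to 0.0716. The TPC1 step from nutlin to the combination of KIF18A ran from −0.0534 without TPC1 nutlin replicate 1 to 0.359 without TPC1 nutlin replicate 3, and that of KIF20B from −0.00179 without TPC1 combination replicate 3 to 0.1225 without TPC1 combination replicate 1. The K1 GSK2830371 value of CENPO was −0.0852 after GC and length correction, and that of CENPN ran from −0.0961 without K1 GSK2830371 replicate 2 to 0.013 without K1 GSK2830371 replicate 1. The K1 minus TPC1 combination value of KIF18A was −0.0357 without a filter, −0.000649 with the replicate block, −0.107 after GC and length correction, and from −0.23 to 0.17 with 1 library left out.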
